A study of Rattus norvegicus with 23 samples.

Results

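Control aggregates at 12 hours were compared with control aggregates at 6 hours, in 6 of the 23 libraries of the series. The aggregates are 3D cultures made from the brains of embryonic day 15 rats of the Sprague Dawley strain, kept for 14 days under agitation with medium renewed every 3 days. All 6 libraries come from aggregates that received phosphate-buffered saline (PBS) and no sepiapterin, taken 6 hours (T6) or 12 hours (T12) into the experiment. The other groups received sepiapterin, a precursor that cells convert to the enzyme cofactor tetrahydrobiopterin, at 120 ng/ml, or were controls at 0 or 24 hours. Whether replicates are separate cultures is not stated in the labels. The p-values therefore cover the spread between these libraries alone, which may be technical.

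The members were chosen by file name. The 3 libraries of T12 controls are those whose file names and column headers read 10, 11 and 12, and the 3 libraries of T6 controls are 1a, 2a and 3a. For samples 10 and 11 the titles and the file names disagree. The files named 10 and 11 carry the titles 10b and 11b, and the files named 10b and 11b carry the titles 10 and 11. The labels' protocols place the 6 and 12 hour libraries in a first preparation batch and the repeats of 2 T12 controls in a second. By file name, all 6 libraries compared here are therefore in the first batch. Libraries are called below by their file names.

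Such aggregates form when dissociated fetal brain cells are kept in suspension and reassemble into spheres, in which neurons, astrocytes, oligodendrocytes and microglia differentiate together. Gene expression in a culture of this kind moves with maturation, with the time since the medium was renewed and with handling. Controls that differ only in the time of sampling give the change against which a treatment is read at each time. The labels do not say when the medium was last renewed before sampling, and untouched aggregates at the same hours were not analysed here. In a bulk measurement, fewer cells of a type and less RNA per cell cannot be told apart.

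Reads in genes numbered 21662777 to 26588314 per library at T6 and 20217962 to 21901345 at T12, and 17084 to 17439 and 16917 to 16966 genes had reads. Reads outside any gene made up 15.9 to 16.6% of the alignments tallied at T6 and 14.8 to 15.6% at T12, and reads with several alignments 23.6 to 24.0% and 24.4 to 24.8%. Both shares, and the number of genes with reads, separate the times in controls. In the sepiapterin libraries each of these overlapped between the times. Reads outside any gene were 16 to 16.6% there at T6 and 16.4 to 16.7% at T12. Reads with several alignments were 23.6 to 24.2% and 23.5 to 23.8%. The part of these measures in the control calls, and in the comparison with sepiapterin, was not tested. The files name genes by Ensembl identifier only. The reference table used here held no Ensembl identifiers, so 0 of 32494 identifiers were matched to a symbol. What the named genes do is therefore not described, and neither the labelled tissue nor its cell types were checked against markers.

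No pair among the 6 libraries agreed within counting error. The chi-square of the read counts per degree of freedom, which is near 1 for counting error alone, was 2.46 to 2.58 between T6 controls. Between T12 libraries 10 and 11 it was 1.98, and library 12 stood at 3.37 from 10 and 3.17 from 11. Library 12 was also the T12 control nearest to the T6 controls, at 4.32 to 4.76, against 5.92 to 7.12 for libraries 10 and 11. Library 12 stood farther from the libraries named 10b and 11b, at 5.56 and 5.49, than from 10 and 11. Library 10 differed from 10b by 4.71 and library 11 from 11b by 4.17, both more than any pair within the T6 or T12 controls. Across the pairs, library 11 differed from 10b by 4.57, less than library 10 did, and library 10 from 11b by 6.16.

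Between 6 and 12 hours 816 of 13926 genes tested changed in control aggregates, 501 higher and 315 lower at T12. That is 5.86% of the genes tested (3.6% higher and 2.26% lower). A gene was called changed at a Benjamini-Hochberg adjusted p below 0.05 in edgeR's quasi-likelihood test, fitted to the 12 first-batch libraries, sepiapterin included. Most of these changes were small. The median size over the 816 genes was 0.22 on the log2 scale, a 1.17-fold change, against 0.08 over all genes tested. Only 50 of the 816 changed 1.5-fold or more and 12 changed 2-fold or more.

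The libraries did not overlap between T6 and T12 for 811 of the 816 called genes, and for 3841 of all 13926 genes, or 27.6%. The count among called genes largely restates the calls, which come from the same values. Among genes called higher the median log2 fold change was 0.21, ranging from 0.10 to 1.61. Among genes called lower it was -0.25, ranging from -1.47 to -0.11. Over all genes tested the median log2 fold change was -0.01. The split by direction depended on the scaling. TMM scaling gave 61.4% of the called genes as higher at T12, upper quartile scaling gave 398 higher and 386 lower (5.63% of the genes tested), and library size alone gave 386 higher and 397 lower (5.62%).

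Genes with more reads were called more often. The tested genes were divided into quartiles by their mean level over the 12 libraries in CPM, the library-scaled read count. In the lowest quartile, from 0.364 to 6.69 CPM, 31 genes were higher and 23 lower, or 1.55% of that quartile. In the second, up to 27.4 CPM, 77 were higher and 84 lower (4.63%), and in the third, up to 73.9 CPM, 132 were higher and 111 lower (6.98%). In the highest quartile, which reached 9410 CPM, 261 were higher and 97 lower (10.3%). The precision ran the same way, with a median standard error (SE) of the log2 fold change of 0.221 in the lowest quartile and 0.0398 in the highest.

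The size of the called changes ran against the level, at a median of 0.644 on the log2 scale in the lowest quartile and 0.168 in the highest. The median called change of the highest quartile was thus smaller than the median SE of the lowest quartile. Higher calls made up 72.9% of the called genes in the highest quartile and 47.8 to 57.4% in the others. Under library size scaling alone these shares were 57.3% in the highest quartile and 39.6 to 50% in the others.

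**Figure D1:**
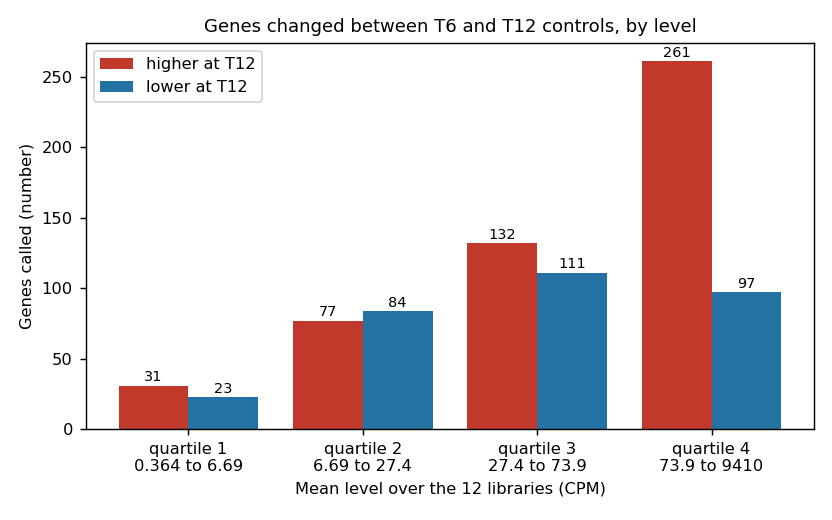
Number of genes called higher (red) and lower (blue) in T12 than in T6 controls, by quartile of the mean level over the 12 first-batch libraries (CPM), with TMM scaling. Calls rise from 54 genes in the lowest quartile to 358 in the highest, where 261 are higher and 97 lower.

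The genes named here had the largest change, 2 in each direction, among called genes that reached a mean log2 CPM of 1 and whose groups did not overlap. Without those conditions some called genes changed more. Of the genes that rose, ENSRNOG00000017645 stood at 1.03, 1.01 and 1.11 CPM in the T6 controls 1a, 2a and 3a and at 3.76, 2.78 and 3.1 CPM in the T12 controls 10, 11 and 12. Every T12 library lay far above every T6 library. The change was 3.06-fold, from 1.05 ± 0.05 to 3.21 ± 0.50 CPM (SD, n = 3 each), or 1.61 ± 0.32 (SE) on the log2 scale, at an edgeR adjusted p of 0.00996. The gene is weakly expressed, with 23 to 27 reads per library at T6 and 56 to 76 at T12.

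ENSRNOG00000013484 stood at 5.26, 5.83 and 4.43 CPM at T6 and at 11.8, 12.3 and 11.1 CPM at T12. The 3 libraries of each time lay close together, with a wide gap between the times. The rise was 2.25-fold, with means of 5.17 ± 0.70 and 11.8 ± 0.58 CPM (SD, n = 3 each), or 1.17 ± 0.15 on the log2 scale (SE, edgeR adjusted p 0.000175).

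Of the genes that fell, ENSRNOG00000007319 stood at 4.68, 6.09 and 5.54 CPM at T6 and at 3.86, 3.02 and 2.82 CPM at T12. T6 library 1a and T12 library 10 lay nearest to each other, and the groups did not overlap. It fell 1.69-fold, from 5.44 ± 0.71 to 3.24 ± 0.55 CPM (SD, n = 3 each). On the log2 scale this was -0.76 ± 0.17 (SE), at an edgeR adjusted p of 0.0099.

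ENSRNOG00000020246 stood at 6.46, 8.04 and 7.34 CPM at T6 and at 4.56, 4.81 and 3.88 CPM at T12, again without overlap. It fell 1.66-fold, from 7.28 ± 0.79 to 4.42 ± 0.48 CPM (SD, n = 3 each), or -0.73 ± 0.12 on the log2 scale (SE, edgeR adjusted p 0.00142). This gene kept its call under all 20 alternatives run, with adjusted p-values up to 0.0418. ENSRNOG00000013484 and ENSRNOG00000007319 kept their direction under the same 20 alternatives and lost their call under 2 and 3 of them. ENSRNOG00000017645 kept its direction in the 19 alternatives that gave it an adjusted p, DESeq2 being the exception, and lost its call in 3. The kept directions were largely fixed by choosing genes without overlap.

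The same 4 genes were read at the other times, without a test, since T24 is in the second batch by label and no label places T0 in a batch. ENSRNOG00000017645 had its highest control mean at T12, with 1.16 ± 0.87 CPM at T0 and 1.31 ± 0.23 CPM at T24 (SD, n = 3 each). The T0 libraries spread widely, from 0.36 to 2.09 CPM. ENSRNOG00000013484 was highest at T24, at 15.9 ± 3.55 CPM, and lowest at T0, at 3.29 ± 3.25 CPM, where 1 library at 7.04 CPM stood above the others at 1.58 and 1.26.

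ENSRNOG00000007319 was highest at T0, at 7.18 ± 0.71 CPM, and at T24 its level of 4.62 ± 1.23 CPM lay between those of T12 and T6. Its T24 libraries ranged from 3.78 to 6.03 CPM, across the gap between the T6 and T12 controls. ENSRNOG00000020246 peaked at T6 among controls. It stood at 4.74 ± 0.30 CPM at T0, close to its T12 level, and at 2.56 ± 0.32 CPM at T24 (SD, n = 3 each).

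The libraries named 10b and 11b give the same samples again in the second batch, if the file names are right. ENSRNOG00000017645 stood at 2.89 and 2.68 CPM there, and ENSRNOG00000013484 at 10.4 and 14.3 CPM. ENSRNOG00000007319 stood at 4.17 and 2.68 CPM, and ENSRNOG00000020246 at 4.42 and 4.12 CPM. Each of these 8 values lay on the same side of all 3 T6 controls as the T12 controls did.

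**Figure D2:**
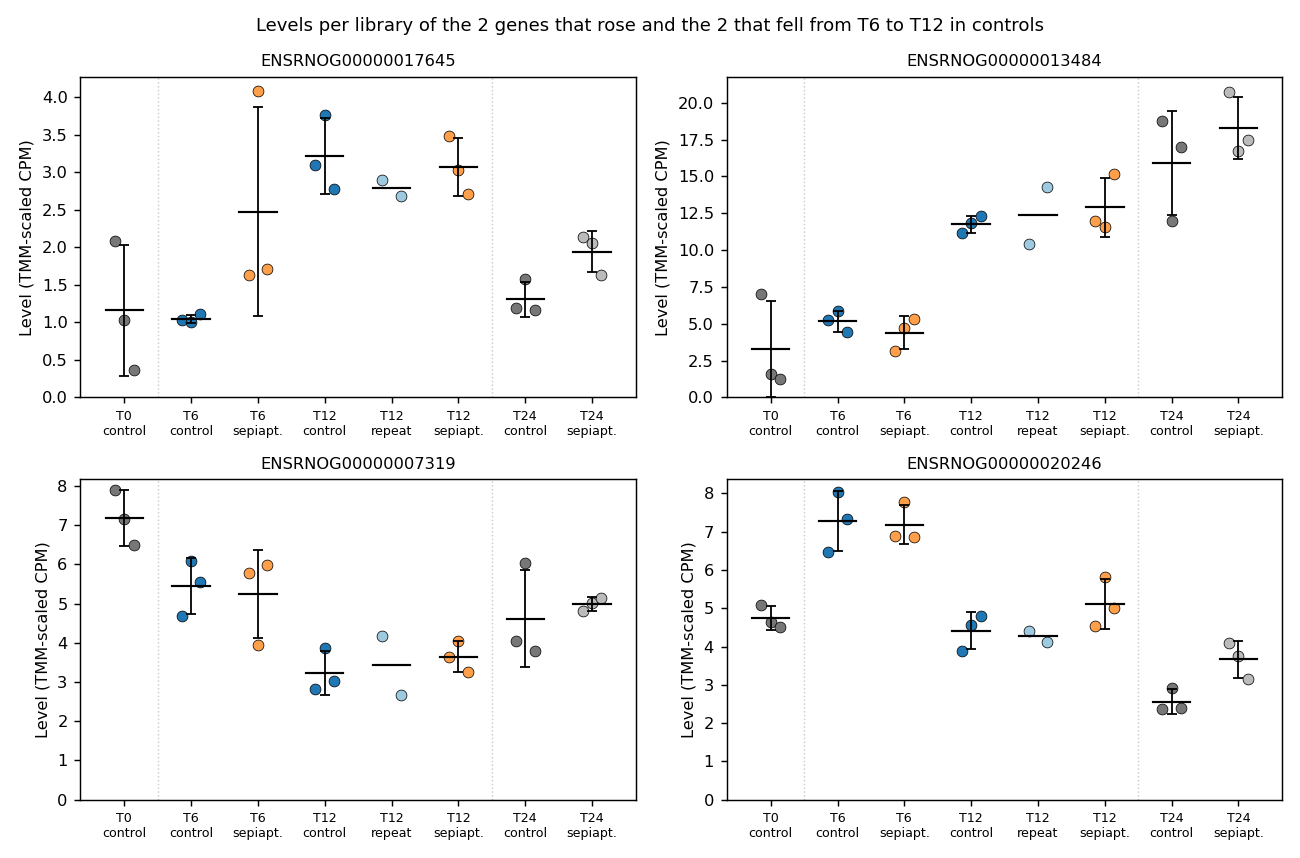
Levels in TMM-scaled CPM of the 2 rising and 2 falling genes named from T6 and T12 controls, in all 23 libraries by group; points are libraries, lines are means and bars are SD (groups of 3). T6 and T12 controls (blue) do not overlap in any panel, which was a condition for naming these genes. ENSRNOG00000017645 stands at 1.31 CPM in T24 controls and ENSRNOG00000013484 at 15.9 CPM. T24 is in the second batch by label, and these levels were not tested.

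Sepiapterin aggregates sampled at the same hours share no library with these controls, and by label their libraries come from the same batch. They give the 6 to 12 hour interval again, in cells that also received sepiapterin. Of the 501 genes that rose in controls, 486 (97%) were also higher at T12 than at T6 with sepiapterin, where 47.7% of all genes tested were higher. Of the 315 genes that fell in controls, 252 (80%) were lower with sepiapterin, where 52.3% of all genes were lower. The shares over all genes were not matched for level, and 261 of the 501 and 97 of the 315 lay in the highest quartile. Among all tested genes with a higher value at T12 in controls, called or not, 64.4% were also higher with sepiapterin, and among those with a lower value 67.9% were also lower. Under library size scaling alone the shares were 96.1% of 386 and 84.4% of 397, and 59% of all genes were lower.

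The median log2 fold change with sepiapterin was 0.17 for the genes that rose in controls, and the middle 80% of them lay between 0.05 and 0.43. For the genes that fell in controls it was -0.12, and the middle 80% lay between -0.29 and 0.06. The corresponding medians in controls, 0.21 and -0.25, come from the values that chose these genes and are not comparable in size.

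In sepiapterin aggregates 1909 genes changed between T6 and T12, 1140 higher and 769 lower, or 13.7% of the genes tested by the same edgeR fit (8.19% higher and 5.52% lower). This split turned with the scaling: library size alone gave 2103 genes, 860 higher and 1243 lower. Of the genes called in controls, 407 were called in the same direction with sepiapterin, which is 49.9% of the control list and 21.3% of the sepiapterin list. These 407 genes were 301 of the 501 that rose in controls and 106 of the 315 that fell. Sepiapterin libraries did not overlap between the times, in the same direction, for 386 of the 501 and 147 of the 315, where 4319 of all genes, or 31%, did not overlap in either direction. A further 5 genes were called lower in controls and higher with sepiapterin. Across all 13926 genes the log2 fold changes of the 2 intervals had a Pearson correlation of 0.385 and a Spearman correlation of 0.42. This is a description across genes, which are not independent replicates, and both intervals share a scaling and a gene filter. The calls of both intervals also use the same estimate of each gene's spread, from the shared fit.

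ENSRNOG00000013484 rose with sepiapterin too, from 3.17, 4.70 and 5.30 CPM at T6 to 12.0, 11.6 and 15.2 CPM at T12. The groups stood apart as in controls, with a log2 fold change of 1.55 ± 0.15 (SE, edgeR adjusted p 6.7e-06). ENSRNOG00000020246 fell from 6.90, 7.78 and 6.87 to 4.54, 5.82 and 5 CPM, also without overlap, with a log2 fold change of -0.49 ± 0.12 (SE, edgeR adjusted p 0.00936). ENSRNOG00000007319 went from 5.78, 3.95 and 5.97 to 3.65, 4.05 and 3.25 CPM. It passed the test at -0.52 ± 0.16 (SE, edgeR adjusted p 0.0366), although 1 T6 library lay within the T12 range.

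With sepiapterin, ENSRNOG00000017645 stood at 1.63, 4.08 and 1.71 CPM at T6 and at 3.48, 3.03 and 2.71 CPM at T12. The second T6 library lay above every T12 library, so that the groups overlapped. Its log2 fold change was 0.30 ± 0.27 (SE, edgeR adjusted p 0.49). The difference from the change in controls was -1.31 ± 0.43 (SE), which did not pass the test (edgeR adjusted p 0.33).

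**Figure D3:**
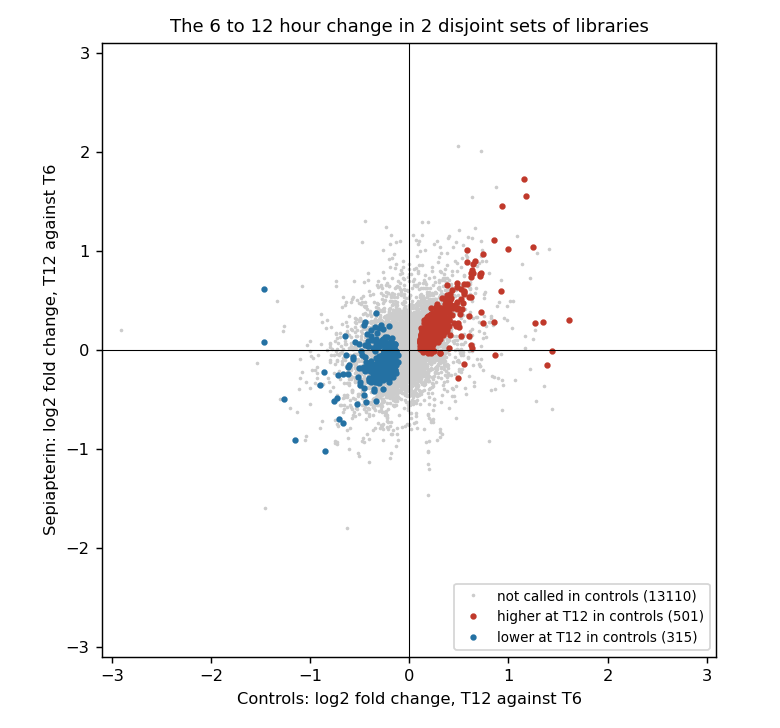
Log2 fold change from T6 to T12 in control (x axis) and in sepiapterin aggregates (y axis) for each of the 13926 genes tested, with the genes called in controls in red (501 higher) and blue (315 lower). Of the red points 486 lie above the horizontal zero line, and of the blue points 252 lie below it.

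Testing the difference itself, the 6 to 12 hour change differed between sepiapterin and control aggregates for 2 genes, or 0.0144% of those tested. An unadjusted edgeR p under 0.05 was reached by 1449 of the 13926 genes. The 2 calls therefore do not show that all other genes changed alike. The count of genes called depended on the setting. It was 0 with all 21 libraries, 48 with DESeq2, 79 without a filter on low counts and 0 to 141 with 1 library left out, and each of the 2 calls was lost in 9 of 16 alternatives. None of the 16 took the T12 controls by title. Both genes are named because the count is so small, after their values were seen. Both fell in the first-batch controls, and with sepiapterin neither fell. ENSRNOG00000006645 stood at 38.6, 41.6 and 38.1 CPM in T6 controls and at 31.1, 28.1 and 31.4 CPM in T12 controls. It stood at 36.1, 35.8 and 38.8 CPM with sepiapterin at T6 and at 40.7, 43.6 and 37.2 CPM at T12. The controls separated by time, while the libraries with sepiapterin overlapped.

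The log2 fold change of ENSRNOG00000006645 was -0.39 ± 0.06 (SE) in controls, with an edgeR adjusted p of 0.000908, and 0.14 ± 0.06 with sepiapterin, with an adjusted p of 0.138. The difference, sepiapterin minus control, was 0.52 ± 0.09 (SE, edgeR adjusted p 0.0495).

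ENSRNOG00000024114 is among the 5 genes called in opposite directions. It stood at 79.0, 86.3 and 76.5 CPM in T6 controls and at 65.1, 69.2 and 75.4 CPM in T12 controls. T12 library 12 lay just below T6 library 3a. With sepiapterin it stood at 75.6, 79.0 and 83.8 CPM at T6 and at 92.7, 94.4 and 95.1 CPM at T12, without overlap.

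The log2 fold change of ENSRNOG00000024114 was -0.21 ± 0.05 (SE) in controls (edgeR adjusted p 0.0276) and 0.24 ± 0.05 with sepiapterin (adjusted p 0.00459). The difference was 0.45 ± 0.08 (SE, edgeR adjusted p 0.0495). Library 10b, at 75.3 CPM, lay below all 3 T6 controls, and library 11b, at 84.7 CPM, lay within their range. The mean of 10b and 11b was 80 CPM, near the 80.6 CPM of T6 controls and above the 69.9 CPM of T12 controls. The fall in controls was thus hardly seen in the libraries of the second batch.

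**Figure D4:**
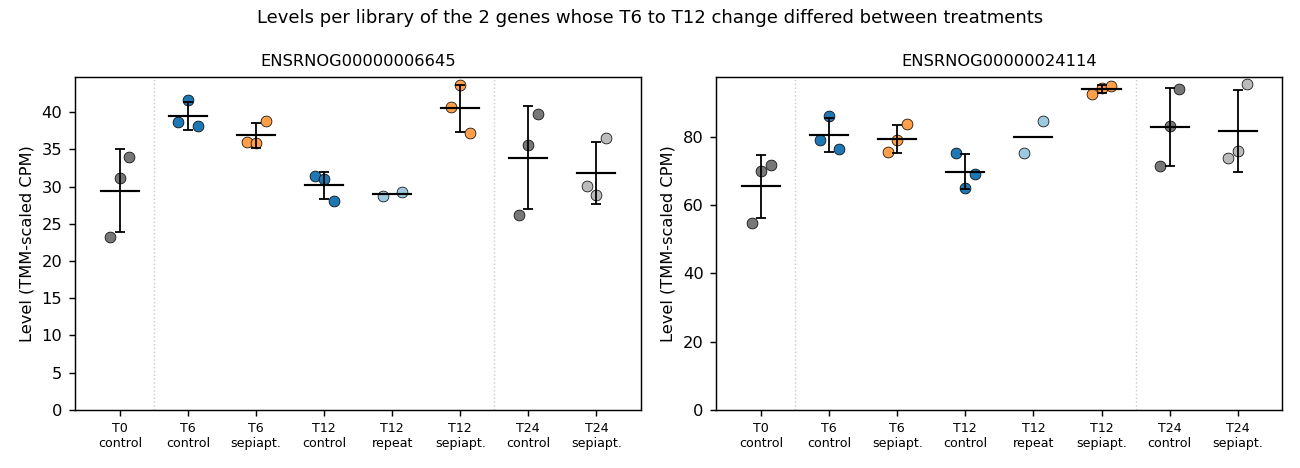
Levels in TMM-scaled CPM, by group and library, of the 2 genes whose change from T6 to T12 passed the test of a difference between sepiapterin and control, a call lost in 9 of 16 alternatives; points are libraries, lines are means and bars are SD (groups of 3). First-batch controls (blue) are lower at T12 than at T6 in both panels. The T12 repeats (light blue) of ENSRNOG00000024114 average 80 CPM, against 80.6 CPM in T6 controls. With sepiapterin (orange) this gene stands at 92.7 CPM or more at T12.

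The number of genes called between T6 and T12 controls depended on which libraries were fitted. A fit of all 21 libraries in 7 groups, with T0 and T24 included, called 167 genes (1.19% of those tested), 110 higher and 57 lower, all of them among the 816. The 6 control libraries alone gave 1497 genes (11%), 813 of them shared. The root mean square SD of a gene within a group was 0.237 log2 units in T0 controls, 0.159 in T6 controls and 0.169 in T12 controls. The part of the T0 libraries in the lower count was not tested.

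With the T12 controls taken by sample title, 1440 genes (10.4%) were called, 590 of them shared with the grouping by file name. If the file names are right, that grouping compares across batches for 2 of its 3 libraries. Summing the libraries of samples 10 and 11, which does not depend on the labels of the pair, called 1319 genes (9.46%), 730 of them shared. This alternative was added after seeing the data. By label it gives 2 of the 3 T12 controls more reads, from both batches, while the T6 controls stay as they were. The part of depth and batch in its count was not tested. With library 12 as the only T12 control, the one whose title and file name match, 43 genes were called (0.301%; 33 higher, 10 lower), 40 of them shared. There the spread of the T12 controls is assumed to be that of the other groups.

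Leaving out single libraries moved the count by more than 1.5 times in 5 of 6 cases. It was 293 (2.08% of the genes tested) without T12 library 10 and 305 (2.17%) without 11. Without T6 libraries 1a, 2a and 3a it was 397 (2.82%), 437 (3.11%) and 431 (3.07%). Without library 12, the T12 control nearest to T6, it was 814 (5.79%), with 624 genes shared. Fewer libraries also leave fewer degrees of freedom, so these counts are not on equal terms with the full fit.

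Other methods on the same 12 libraries gave 848 genes (6.09%) with RLE size factors, 798 (6.87%) with DESeq2, 842 (6.05%) with a non-robust spread and 1570 (11.3%) with limma voom with quality weights. Without a filter on low counts 1039 genes (5.08%) were called, and 868 (7.23%) among genes whose mean log2 CPM reached 1. At an adjusted p below 0.1 the edgeR count was 1453 (10.4%).

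**Figure D5:**
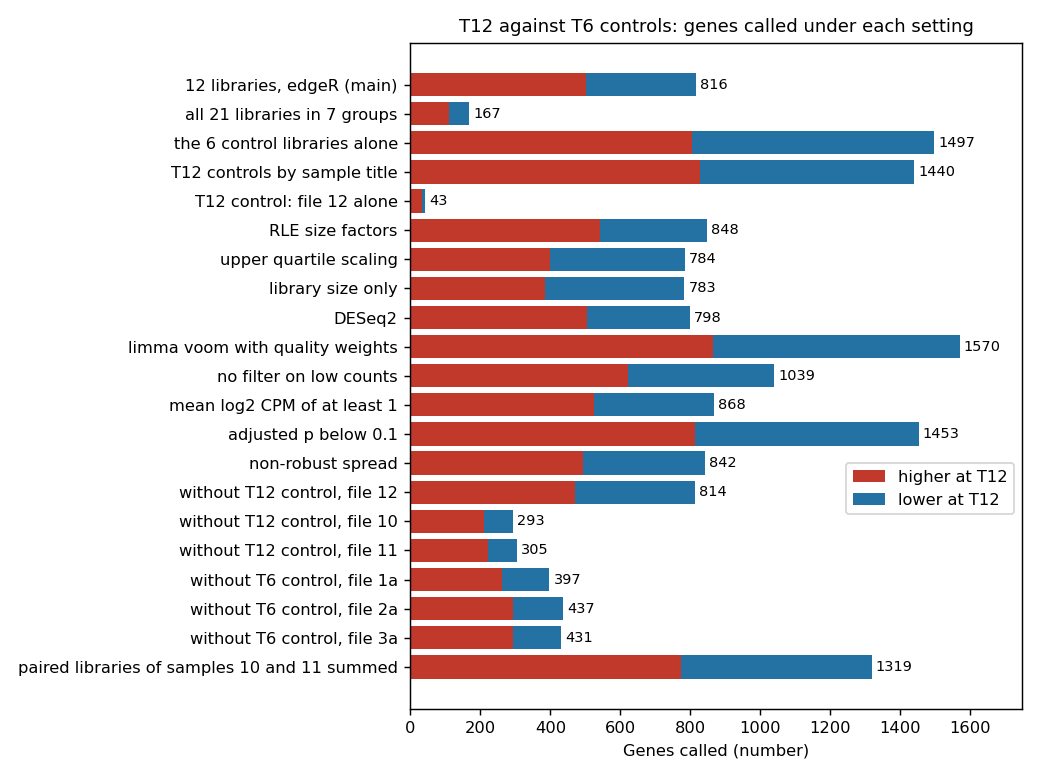
Number of genes called between T12 and T6 controls under each setting, stacked as higher (red) and lower (blue) at T12; libraries left out are given by file name. Counts run from 43 with library 12 as the only T12 control to 1570 with limma voom, around 816 for the reported fit.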

How the data were processed

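Each library has a deposited table of raw counts for 32494 Ensembl identifiers. Its 5 summary lines stayed out of library sizes and tests. The submitters' processing notes name cutadapt 1.8, STAR 2.5.2b, HTSeq 0.6.1 and the build Rnor_6.0. Stranded libraries were made from 500 ng of RNA, per the labels' protocols. For the strand setting and the annotation release, nothing is given in the sources used here, and overlapping genes and near-identical copies are uncertain. Reads with several alignments (23.6 to 24.8% of alignments in these libraries) were not counted in genes.

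Groups follow the titles, and the T12 controls the file names. The fit used edgeR 4.0.16 (R 4.3.3) with robust quasi-likelihood, TMM scaling and filterByExpr (minimum count 10), on 12 libraries (4 groups, 8 residual degrees of freedom), and gave both intervals and their difference. Benjamini-Hochberg adjustment ran over 13926 genes. Each SE of a log2 fold change was derived from the test, as the absolute log2 fold change over the square root of the F statistic. Levels are TMM-scaled CPM, with the TMM factors of the other libraries taken against the same reference library. Alternatives used DESeq2 1.42.0 and limma 3.58.1. The tests were also run on counts simulated from the means and spread of the fit itself, with outcomes not reported here.

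The members, lists and tests were chosen with earlier results of these data known. The rule for named genes took 12 genes with symbols in each direction, and without symbols the first 2. The 28 gene lists, made of symbols, could not be used, nor could promoter sequences. The fit of the first batch, in place of all 21 libraries, keeps to libraries prepared together by label, and was chosen with the lower count of the 21-library fit (167 genes) already known.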

Additional observations from a re-analysis of the deposited data

Results flagged for a closer look

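The change from 6 to 12 hours differed between sepiapterin and control aggregates, by the test of the difference itself, for 2 genes. The difference on the log2 scale, sepiapterin minus control, was 0.52 ± 0.09 (SE, edgeR adjusted p 0.0495) for ENSRNOG00000006645, and 0.45 ± 0.08 (edgeR adjusted p 0.0495) for ENSRNOG00000024114. All 3 libraries of T12 controls lay below all 3 of T6 controls for both genes. That separation adds little to their calls in controls, since 312 of the 315 genes called lower did not overlap. Over all genes tested, 27.6% did not overlap in either direction. For ENSRNOG00000024114 the nearest libraries stood at 75.4 and 76.5 CPM. Library 11b, at 84.7 CPM, lay within the T6 range for this gene, while 10b, at 75.3 CPM, lay below it. For ENSRNOG00000006645 both lay below all T6 controls, at 29.3 and 28.7 CPM. Each gene kept its direction in all 16 alternatives run and its call in 7 of them. None of the 16 regrouped the T12 controls by title or summed their paired libraries. Both calls were lost without T6 control 1a or 2a, T12 control 10 or 11, T6 sepiapterin 96 or 97, or T12 sepiapterin 105 or 106, and in the fit of all 21 libraries. Over the alternatives the adjusted p ranged from 5.2e-06 to 0.787 for ENSRNOG00000006645 and from 5.13e-06 to 0.787 for ENSRNOG00000024114.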

How the results depend on the processing

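The 816 genes called between T12 and T6 controls moved by over 1.5 times in 12 of 20 alternatives. The count was 167 with all 21 libraries, 1497 with the 6 control libraries alone, 1440 by sample title, 43 with library 12 as the only T12 control, 1570 with limma voom with quality weights, 1453 at an adjusted p below 0.1 and 1319 with the paired libraries summed. Leaving out 1 library gave 293 to 814. Scaling, DESeq2 (798 genes), the filters on low counts and non-robust spread kept the count between 783 and 1039. The 1909 genes of the sepiapterin interval became 766 with all 21 libraries and 929 to 1937 without 1 library, moving by over 1.5 times without T6 sepiapterin 96 (929) or 97 (989) or T12 sepiapterin 107 (1215). The count of 2 genes for the difference became 0 with all 21 libraries (where 879 had an unadjusted p under 0.05), 4 with library size only, 48 with DESeq2, 79 without a filter, and 0 to 141 without 1 library (141 without T12 sepiapterin 107).

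No named gene changed direction in the 16 to 20 alternatives that gave it a value and an adjusted p. ENSRNOG00000017645 lost its call with library 12 as the only T12 control (adjusted p 0.255), without T12 library 10 (0.0573) and without T6 library 2a (0.0518), and DESeq2 gave it no adjusted p. ENSRNOG00000013484 lost its call with all 21 libraries (0.132) and with library 12 alone (0.0614). ENSRNOG00000007319 lost its call with library 12 alone (0.131), without T12 library 11 (0.0582) and without T6 library 2a (0.0622). The cause was not tested. The SE was largest in the lowest quartile of level, at a median of 0.221, and the part of depth in the calls was not tested.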
